A study of Mus musculus with 12 samples.

Results

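Mouse brain tumours carrying the YAP1-TFE3 fusion were compared with tumours carrying the YAP1-MAMLD1-dR3R1 fusion by RNA sequencing of whole tumour tissue. The comparison took the 3 libraries titled YAP1-TFE3 and the 3 titled YAP1-MAMLD1-dR3R1, which are 6 of the 12 libraries of the series, and covered every gene. The other 6 libraries, 3 from naive brain and 3 from YAP1-FAM118B tumours, entered the fit as further groups and gave reference levels. Each tumour had been raised by an intracranial injection of an RCAS virus, an avian retroviral vector that carried the fusion, and was frozen before RNA extraction. The series asks what tumour-associated YAP1 fusions have in common. Strain, age, the promoter and cell type that made the mice open to the virus, and the meaning of the suffix dR3R1 were not given in the sources used here. No source says whether each library came from a mouse of its own, so p-values measure the spread between these libraries.

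YAP1 is a transcriptional coactivator that reaches DNA through TEAD factors and is held back by the Hippo kinases. TFE3 belongs to the MiT/TFE family of basic helix-loop-helix leucine zipper factors, which bind E-box sequences in promoters of lysosome and autophagy genes. These factors are kept in the cytoplasm by mTORC1 through the Rag GTPases and folliculin. MAMLD1 has a mastermind-like domain, and mastermind proteins are coactivators of Notch. YAP1-MAMLD1 occurs in ependymoma of the forebrain, and YAP1-TFE3 is known from epithelioid haemangioendothelioma, a vascular sarcoma.

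The YAP1-TFE3 libraries held 23446401, 23831198 and 24611949 reads counted on genes, and the YAP1-MAMLD1-dR3R1 libraries 24281068, 19850220 and 22811856, in the order of replicates 1, 2 and 3 used throughout. Levels are given as CPM, the counts of a gene scaled to a common library size, with library sizes adjusted by the trimmed mean of M values (TMM). A floor of detection of 3 counts corresponds to 0.116 to 0.145 CPM. Across genes, log2 CPM correlated at r = 0.911 to 0.940 within the YAP1-TFE3 libraries, at 0.905 to 0.955 within the YAP1-MAMLD1-dR3R1 libraries, and at 0.805 to 0.865 between the groups. The first principal component of the 6 libraries held 58.2% of the variance and separated the groups, and the second held 21.1% and ran within both. YAP1-MAMLD1-dR3R1 replicate 1 alone had Xist (492 CPM) and no Ddx3y count, whereas the other 5 had Ddx3y at 68.8 to 87.8 CPM, so that 1 female and 5 male libraries were compared. Changes are log2 fold changes of YAP1-TFE3 minus YAP1-MAMLD1-dR3R1 with their standard errors (SE), and every "rose by" or "fell by" is on that scale.

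Of 16364 genes tested with edgeR's quasi-likelihood test, 6456 (39.5%) differed between the groups at a Benjamini-Hochberg adjusted p under 0.05. In YAP1-TFE3 tumours 3695 genes (22.6%) were higher and 2761 (16.9%) lower, and in a test against a fold of 2, 938 (5.73%) were higher and 623 (3.81%) lower. The median log2 fold change of all genes tested, YAP1-TFE3 minus YAP1-MAMLD1-dR3R1, was -0.05. The balance of the directions depended on scaling: the reported TMM factors used YAP1-MAMLD1-dR3R1 replicate 2 as the reference library. Plain library sizes moved all log2 fold changes by -0.19 at the median and gave 2803 higher and 3866 lower. Upper-quartile factors moved them by -0.14 and gave 3031 higher and 3599 lower, and a naive library as TMM reference gave 2901 to 2955 higher and 3647 to 3721 lower. Without YAP1-TFE3 replicate 1 the fit called 2461 higher, without YAP1-MAMLD1-dR3R1 replicate 2 it called 2364, and without YAP1-MAMLD1-dR3R1 replicate 3 it called 2458. The factors were recomputed in these runs, which moved log2 fold changes by -0.12, -0.15 and -0.18 at the median. The shift was -0.17 and -0.13 without YAP1-TFE3 replicates 2 and 3, and -0.01 without YAP1-MAMLD1-dR3R1 replicate 1. A small increase that lost its call without a library may thus reflect scaling, that library or both. Changes of about the size of these shifts depend on the scaling for their direction. None of the 278 called genes among the 282 chosen by the naming rule changed sign under any alternative run. Most were chosen for a large change or a small adjusted p in the reported fit. Their stable sign therefore says little about genes with smaller changes. For the same reason, lack of overlap between the groups in a chosen gene adds no separate support. Of all genes tested, 27.0% were higher and 21.1% lower in YAP1-TFE3 tumours without overlap of the libraries.

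**Figure D1:**
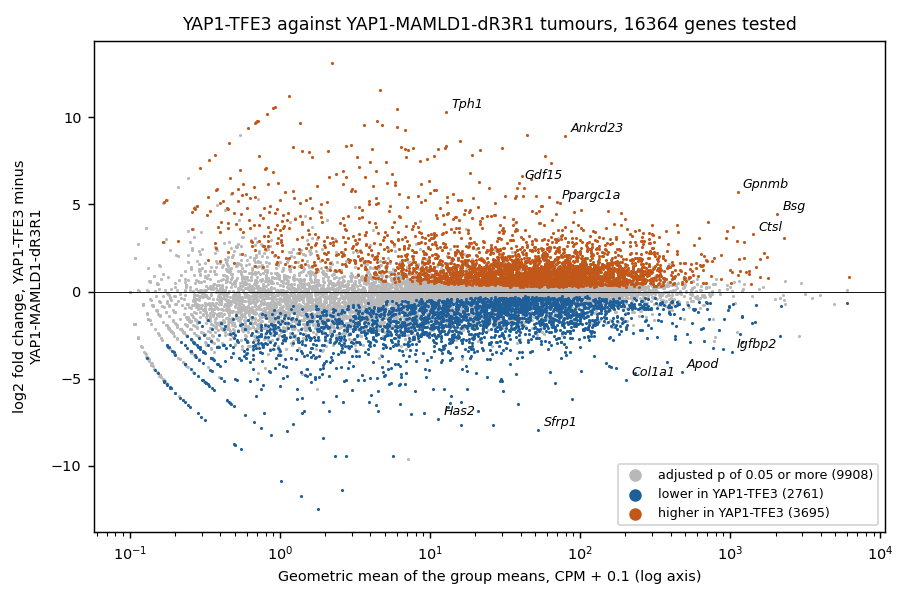
Each point is 1 of 16364 genes, with the geometric mean of the group means in CPM plus 0.1 on the horizontal log axis and the log2 fold change of YAP1-TFE3 minus YAP1-MAMLD1-dR3R1 tumours on the vertical axis. Genes at an adjusted p under 0.05 are orange where higher in YAP1-TFE3 (3695) and blue where lower (2761), and Bsg, Gpnmb and Ctsl stand out at high level above 0 while Sfrp1, Apod and Igfbp2 lie below it.

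**Figure D2:**
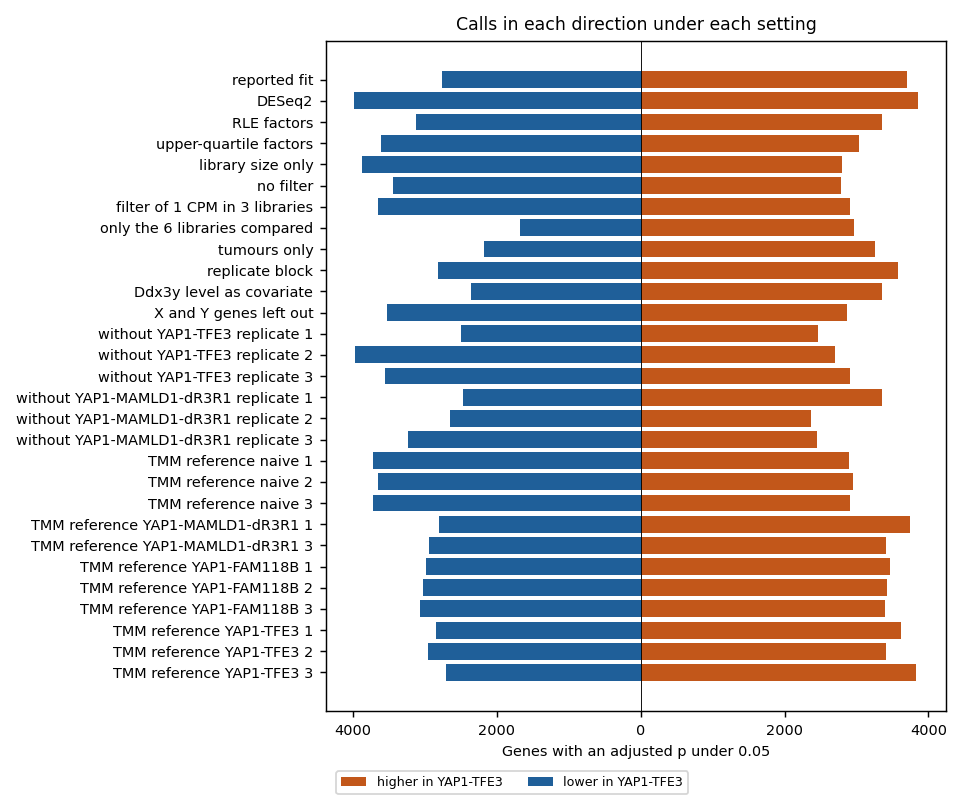
Bars give the number of genes at an adjusted p under 0.05 in each direction (orange to the right, higher in YAP1-TFE3; blue to the left, lower) for the reported fit (3695 and 2761) and each alternative. The larger bar is on the right in the reported fit and on the left for plain library sizes (2803 and 3866).

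Among the fusion partners Tfe3 was higher and Mamld1 lower in YAP1-TFE3 tumours, and both calls were lost when certain single libraries were left out. The counts do not separate mouse transcripts from reads of a fusion. Tfe3 (chrX:7762530-7775202 in GRCm38.p6) was at 75.2, 93 and 89.2 CPM in YAP1-MAMLD1-dR3R1 and 155, 115 and 108 CPM in YAP1-TFE3 tumours. Tfe3 rose by 0.55 (SE 0.18, adjusted p = 0.0336). The 3 YAP1-TFE3 values lay above the others, but the call was lost with plain library sizes (adjusted p = 0.104) and whenever 1 library of either group was left out (0.0539 to 0.361). Mamld1 was at 46.4, 13.8 and 24.4 CPM in YAP1-MAMLD1-dR3R1 and 9.98, 14.8 and 3.9 CPM in YAP1-TFE3 tumours. Mamld1 fell by 1.56 (SE 0.5, adjusted p = 0.0317), but the groups overlapped and the call was lost without YAP1-TFE3 replicate 1 (adjusted p = 0.0716) or YAP1-MAMLD1-dR3R1 replicate 1 (adjusted p = 0.128). Yap1 overlapped as well, with 121, 63.4 and 82 CPM in YAP1-MAMLD1-dR3R1 and 119, 109 and 79.7 CPM in YAP1-TFE3 tumours. Yap1 did not pass the test (log2 fold change 0.2, SE 0.26, adjusted p = 0.549). Mitf, the MiT/TFE member that drives the pigment cell lineage, was at 21.8, 21.8 and 23.7 CPM in YAP1-MAMLD1-dR3R1 and 12.2, 4.83 and 10.7 CPM in YAP1-TFE3 tumours. Mitf fell by 1.28 (SE 0.33, adjusted p = 0.0128), while Tfeb (adjusted p = 0.677) and Tfec (adjusted p = 0.307) did not pass.

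Lysosome genes, the textbook targets of MiT/TFE factors, were higher more often than lower in YAP1-TFE3 tumours, and many did not pass the test. Of 35 lysosomal hydrolases tested, 16 rose and 5 fell (median log2 fold change 0.62), against 22.6% and 16.9% of all genes and a median of -0.05. The number that fell was 9 without YAP1-TFE3 replicate 3. Ctsl, which encodes the protease cathepsin L (chr13:64361890-64370772 in GRCm38.p6), was at 440.4, 430.1 and 499 CPM in YAP1-MAMLD1-dR3R1 and 5213, 4002 and 4126 CPM in YAP1-TFE3 tumours. Ctsl rose by 3.28 (SE 0.25, adjusted p = 1.54e-05). Smpd1, for acid sphingomyelinase, was at 92, 84 and 84.1 CPM in YAP1-MAMLD1-dR3R1 and 714, 546 and 1012 CPM in YAP1-TFE3 tumours. Smpd1 rose by 3.13 (SE 0.21, adjusted p = 1.08e-05). Gla, for alpha-galactosidase A, was at 31.5, 20.3 and 24.4 CPM in YAP1-MAMLD1-dR3R1 and 193, 129.7 and 127 CPM in YAP1-TFE3 tumours. Gla rose by 2.56 (SE 0.21, adjusted p = 2.47e-05). For all of these the lowest YAP1-TFE3 library stood well above the highest YAP1-MAMLD1-dR3R1 library. Plbd2 (log2 fold change 1.86, adjusted p = 0.000242) and Naglu, which degrades heparan sulphate (log2 fold change 1.29, adjusted p = 0.000823), rose less. Sgsh, another enzyme of heparan sulphate breakdown, went the other way, at 30.4, 19 and 22 CPM in YAP1-MAMLD1-dR3R1 and 5.01, 10.6 and 8.08 CPM in YAP1-TFE3 tumours. Sgsh fell by 1.59 (SE 0.38, adjusted p = 0.00797).

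Among 17 proteins of the lysosome membrane 9 rose (median 0.59). Gpnmb, a glycoprotein of melanosomes, lysosomes and phagocytes (chr6:49036518-49058182 in GRCm38.p6), was at 197, 90.8 and 173 CPM in YAP1-MAMLD1-dR3R1 and 6067, 8763 and 9476 CPM in YAP1-TFE3 tumours. Gpnmb rose by 5.72 (SE 0.66, adjusted p = 0.000157), and naive brain had 12.1, 5.15 and 3.96 CPM. The YAP1-TFE3 libraries carried more Gpnmb reads than any other library by a wide margin. Mcoln1, the calcium channel of the lysosome, was at 36.2, 35.3 and 28.7 CPM in YAP1-MAMLD1-dR3R1 and 91.1, 82.3 and 98.8 CPM in YAP1-TFE3 tumours. Mcoln1 rose by 1.44 (SE 0.14, adjusted p = 5.34e-05). Ctns, the cystine exporter, rose by 2.0 (adjusted p = 7.84e-05), Ostm1 rose by 1.52 (adjusted p = 2.34e-05) and Laptm4b rose by 1.56 (adjusted p = 8.29e-05). Scarb2, the receptor that carries glucocerebrosidase to lysosomes, fell by 0.5 (adjusted p = 0.00617). The number of membrane proteins called lower was 1 in the reported fit, 3 with plain library sizes or without YAP1-TFE3 replicate 3, and 2 without YAP1-TFE3 replicate 2 or YAP1-MAMLD1-dR3R1 replicate 1.

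The proton pump that acidifies lysosomes was also higher than in YAP1-MAMLD1-dR3R1 tumours, in 12 of 15 V-ATPase subunits tested (median 0.78). The subunits summed to 2140, 1942 and 1712 CPM in YAP1-MAMLD1-dR3R1 and 3551, 3548 and 3536 CPM in YAP1-TFE3 tumours. The sums were 3684, 3479 and 3772 CPM in YAP1-FAM118B tumours and 4673, 4427 and 4131 CPM in naive brain. YAP1-MAMLD1-dR3R1 was thus the group that stood apart, and YAP1-TFE3 did not exceed naive brain. Atp6v1e1 was at 158, 138 and 112 CPM in YAP1-MAMLD1-dR3R1 and 451, 372 and 361 CPM in YAP1-TFE3 tumours. Atp6v1e1 rose by 1.54 (SE 0.16, adjusted p = 0.000103), Atp6v1d rose by 1.49 (adjusted p = 0.000208) and Atp6v1h rose by 1.01 (adjusted p = 0.000501). For none of these subunits did the groups overlap. Of 12 genes of the folliculin, FNIP and Rag GTPase machinery, which reports lysosomal amino acids to mTORC1 and holds MiT/TFE factors, 8 rose and 1 fell (median 0.66). Rragd, the RagD GTPase, was at 62.5, 55.8 and 26.4 CPM in YAP1-MAMLD1-dR3R1 and 239, 182 and 339 CPM in YAP1-TFE3 tumours. Rragd rose by 2.39 (SE 0.43, adjusted p = 0.0018). Rragc, which pairs with RagA or RagB as RagD does, was at 122, 108 and 99.8 CPM in YAP1-MAMLD1-dR3R1 and 246, 194 and 274 CPM in YAP1-TFE3 tumours. Rragc rose by 1.11 (SE 0.17, adjusted p = 0.000768). Fnip2, a partner of folliculin, rose by 1.61 (adjusted p = 0.000269). The member that fell was Lamtor4, a subunit of the Ragulator scaffold (log2 fold change -0.58, adjusted p = 0.0114). In autophagy, 10 of 24 genes rose in the reported fit (median 0.2), and 6 with plain library sizes. The number was 5 without YAP1-TFE3 replicate 1 or YAP1-MAMLD1-dR3R1 replicate 2, and 6 without YAP1-TFE3 replicate 2 or 3 or YAP1-MAMLD1-dR3R1 replicate 3. Optn, an autophagy receptor, was at 22, 19.9 and 17.9 CPM in YAP1-MAMLD1-dR3R1 and 176, 152 and 134 CPM in YAP1-TFE3 tumours. Optn rose by 2.95 (SE 0.18, adjusted p = 8.98e-06). Gabarapl2, of the autophagosome membrane, rose by 2.29 (adjusted p = 8.29e-05) and Sqstm1, the receptor p62, rose by 1.16 (adjusted p = 0.00017). Of the initiating kinases Ulk1 rose by 1.14 (adjusted p = 0.000119) and Ulk2 fell by 0.74 (adjusted p = 0.00817). Ulk1 was at 113, 102 and 91.3 CPM in YAP1-TFE3 tumours and 113, 103 and 96.1 CPM in naive brain.

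**Figure D3:**
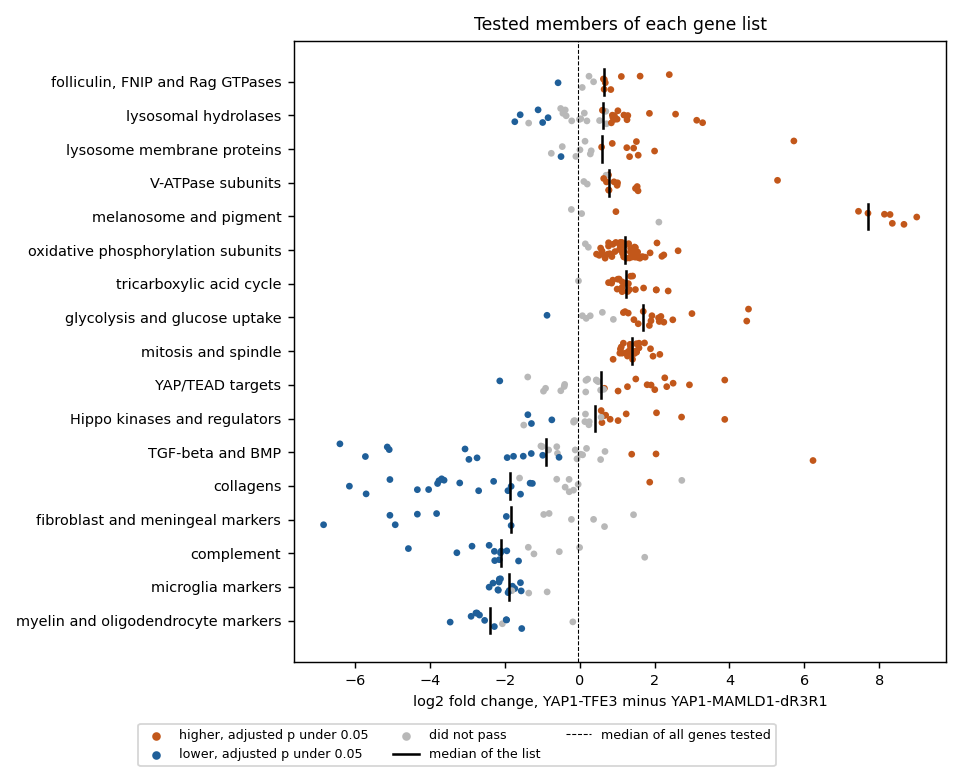
Each point is a tested member of the gene list named on the vertical axis, placed by its log2 fold change of YAP1-TFE3 minus YAP1-MAMLD1-dR3R1 tumours, with orange and blue for an adjusted p under 0.05 and grey for members that did not pass. Black bars are list medians and the dashed line is the median of all genes tested (-0.05); oxidative phosphorylation (49 of 51 higher) and mitosis genes (24 of 24) lie to the right, collagens (17 of 26 lower) and microglia markers (14 of 17 lower) to the left.

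MiT/TFE factors bind the E-box TCACGTG, and RefSeq promoter windows of GRCm38.p6, from 250 bases before to 50 after the start of the gene, were searched for it on both strands. It was found in 3.77% of all 32851 windows. Counted by gene, over any window of that gene, it was found in 6.35% of 12845 tested genes that had a window. The share was 8.83% of 2989 such genes that rose and 4.2% of 2117 that fell. For genes that did not pass the share was 5.98% of 7739. Among genes that rose and had a window, it stood in 3 of 7 genes of the folliculin and Rag list, 4 of 11 of the hydrolases, 3 of 7 of the V-ATPase and 1 of 6 of the lysosome membrane proteins. It stood in 1 of 37 oxidative phosphorylation genes that rose, 0 of 9 of autophagy and 0 of 4 of melanosome genes. Over all tested members, risen or not, the counts were 5 of 11 for the folliculin and Rag list, 8 of 27 for the hydrolases, 4 of 10 for the V-ATPase and 4 of 14 for the lysosome membrane proteins. Windows that hold it are printed for genes of the lysosome and Rag lists that rose: Mcoln1 (chr8:3500269-3500568, plus strand), Rragc (chr4:123917183-123917482, plus strand), Naglu (chr11:101069844-101070143, plus strand), Gla (chrX:134600956-134601255, minus strand) and Atp6v1a (chr16:44139210-44139509, minus strand). The V-ATPase gene Atp6v1a was chosen for its window after its values were seen and rose by 1.0 (adjusted p = 0.00721), a call lost without YAP1-MAMLD1-dR3R1 replicate 2 (adjusted p = 0.0721). Each is given 5′ to 3′ on the strand of the gene, and capitals mark TCACGTG or its reverse complement, overlapping matches merged. Mcoln1 and Gla held 2 such stretches and the others 1.

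Mcoln1: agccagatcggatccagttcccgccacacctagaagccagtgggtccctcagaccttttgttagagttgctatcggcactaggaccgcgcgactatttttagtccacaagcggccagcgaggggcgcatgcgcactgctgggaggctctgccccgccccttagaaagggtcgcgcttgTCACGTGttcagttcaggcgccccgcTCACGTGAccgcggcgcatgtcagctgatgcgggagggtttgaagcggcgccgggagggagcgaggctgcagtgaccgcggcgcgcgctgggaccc
Rragc: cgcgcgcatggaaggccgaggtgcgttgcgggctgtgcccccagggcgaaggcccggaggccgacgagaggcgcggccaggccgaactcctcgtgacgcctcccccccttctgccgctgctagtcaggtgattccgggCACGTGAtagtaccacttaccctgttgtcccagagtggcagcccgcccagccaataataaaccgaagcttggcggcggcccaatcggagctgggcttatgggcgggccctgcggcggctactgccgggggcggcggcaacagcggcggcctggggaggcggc
Naglu: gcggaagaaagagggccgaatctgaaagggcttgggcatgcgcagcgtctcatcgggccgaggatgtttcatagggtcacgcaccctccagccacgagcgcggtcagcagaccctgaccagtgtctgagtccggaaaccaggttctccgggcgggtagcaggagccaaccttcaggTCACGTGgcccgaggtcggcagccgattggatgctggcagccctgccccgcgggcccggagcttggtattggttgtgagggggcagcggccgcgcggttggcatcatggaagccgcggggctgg
Gla: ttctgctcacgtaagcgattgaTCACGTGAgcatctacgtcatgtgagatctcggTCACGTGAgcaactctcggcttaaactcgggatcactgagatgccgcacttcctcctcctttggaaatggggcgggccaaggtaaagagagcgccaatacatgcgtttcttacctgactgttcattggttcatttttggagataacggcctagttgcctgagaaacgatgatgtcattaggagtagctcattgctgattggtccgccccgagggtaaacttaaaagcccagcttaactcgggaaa
Atp6v1a: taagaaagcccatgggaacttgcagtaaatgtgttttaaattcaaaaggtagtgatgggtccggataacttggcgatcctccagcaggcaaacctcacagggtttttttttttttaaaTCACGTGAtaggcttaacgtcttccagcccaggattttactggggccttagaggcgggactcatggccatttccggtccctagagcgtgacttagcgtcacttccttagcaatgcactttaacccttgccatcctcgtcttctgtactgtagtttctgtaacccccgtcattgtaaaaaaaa

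Pigment genes, another known set under MiT/TFE control through MITF, had the highest median of the lists. Of 11 melanosome genes tested, 8 rose (median 7.7). Pmel, the fibril protein of melanosomes, was at 1.13, 2.13 and 2.48 CPM in YAP1-MAMLD1-dR3R1 and 2267, 290.3 and 379.9 CPM in YAP1-TFE3 tumours. Pmel rose by 9.0 (SE 1.0, adjusted p = 0.000128). Oca2, a melanosome anion channel, was at 1.86, 0.193 and 0.0887 CPM in YAP1-MAMLD1-dR3R1 and 366, 339 and 202 CPM in YAP1-TFE3 tumours. Oca2 rose by 8.66 (SE 1.06, adjusted p = 0.000216). Gpr143 was at 0.427, 0.0966 and 0 CPM in YAP1-MAMLD1-dR3R1 and 38.4, 35.6 and 43 CPM in YAP1-TFE3 tumours. Gpr143 rose by 7.7 (SE 0.97, adjusted p = 0.000263). These 3 genes were below 3 CPM in YAP1-MAMLD1-dR3R1 tumours and above 30 CPM in each YAP1-TFE3 library. Slc24a5 was at 12.4, 12.6 and 13 CPM in YAP1-MAMLD1-dR3R1 and 17.8, 32.4 and 24.3 CPM in YAP1-TFE3 tumours, and rose by only 0.97 (adjusted p = 0.00665). Some others were uneven, Mlana being at 1.78, 30.1 and 75.8 CPM in the YAP1-TFE3 libraries. Dct and Tyrp1, enzymes of melanin synthesis named here after their values were seen, were at 2.46, 291 and 1.02 CPM and 5.3, 323 and 1.58 CPM there. Both were thus found mostly in replicate 2, without which their adjusted p was 0.0665 and 0.177. The Tyrp1 call was also lost without YAP1-MAMLD1-dR3R1 replicate 2 (adjusted p = 0.0679) or 3 (0.0591). Mitf itself was lower, as given above, and the tyrosinase gene Tyr did not pass the filter on low counts.

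The largest increases by log2 fold change were in genes that were absent or below 4 CPM in every YAP1-MAMLD1-dR3R1 library. Nppb, for the natriuretic peptide BNP of the heart (chr4:147985786-147987205 in GRCm38.p6), had no count in the YAP1-MAMLD1-dR3R1 libraries and was at 59.5, 14.6 and 71.7 CPM in the YAP1-TFE3 libraries. With 3 counts in the whole group standing for none, this is at least 1103-fold higher. Trim63, the muscle ubiquitin ligase MuRF1, rose from 0.0388, 0.0483 and 0.0443 CPM to 238, 135 and 76.1 CPM (ratio of pooled counts 3414, 95% counting interval 1168 to 16555). Its paralogue Trim54 rose from no count to 12.2, 21.7 and 5.2 CPM, at least 303-fold. Ankrd23, a muscle ankyrin repeat protein, was at 3.42, 3.24 and 3.86 CPM in YAP1-MAMLD1-dR3R1 and 2073, 1629 and 1514 CPM in YAP1-TFE3 tumours. Ankrd23 rose by 8.95 (SE 0.6, adjusted p = 1e-05). Myom2, of the sarcomere M-band, rose by 9.59 (adjusted p = 7.25e-05), Synpo2l rose by 9.56 (adjusted p = 0.00125) and Colq, the collagen tail of acetylcholinesterase, rose by 9.26 (adjusted p = 8.98e-06). Synpo2l was uneven, at 44.1, 163 and 2.09 CPM in the YAP1-TFE3 libraries, and its log2 fold change was 7.79 without YAP1-TFE3 replicate 2. Tph1, the serotonin synthesis enzyme of gut and pineal gland, was at 0.349, 0.387 and 0.177 CPM in YAP1-MAMLD1-dR3R1 and 558, 243 and 388 CPM in YAP1-TFE3 tumours. Tph1 rose by 10.32 (SE 0.68, adjusted p = 1e-05). Birc7, the melanoma inhibitor of apoptosis livin, was at 0.194, 0.0483 and 0.0887 CPM in YAP1-MAMLD1-dR3R1 and 219, 212 and 80 CPM in YAP1-TFE3 tumours. Birc7 rose by 10.47 (SE 0.72, adjusted p = 1.08e-05). T, which encodes brachyury, had no count in the YAP1-MAMLD1-dR3R1 tumours and was at 9.06, 6.47 and 8.54 CPM in the YAP1-TFE3 tumours, at least 184-fold higher. Trpm8, the cold-sensing channel, went from 0.0388, 0 and 0 to 17.5, 2.17 and 29.7 CPM, and Slc25a48, a mitochondrial carrier, from 0.0776, 0.193 and 0.0443 to 104, 73 and 106 CPM. Shisa3 was at 0.0388, 0.435 and 0.0887 CPM in YAP1-MAMLD1-dR3R1 and 206, 114 and 58.7 CPM in YAP1-TFE3 tumours, and Scgb1c1 rose from no count to 4.44, 1.24 and 13.8 CPM.

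Genes of oxidative metabolism were higher almost throughout. Of 51 subunits of the respiratory chain and ATP synthase, 49 rose (median 1.22). The same held for 20 of 21 genes of the tricarboxylic acid cycle and pyruvate entry (median 1.24) and 35 of 43 mitochondrial ribosomal proteins (median 0.66, 28 of 43 with plain library sizes). Cox5a, of complex IV (chr9:57517328-57532427 in GRCm38.p6), was at 87, 89.3 and 80.6 CPM in YAP1-MAMLD1-dR3R1 and 549, 470.3 and 570.4 CPM in YAP1-TFE3 tumours. Cox5a rose by 2.63 (SE 0.11, adjusted p = 1.86e-06), and naive brain had 137, 148 and 143 CPM. Atp5g3, of ATP synthase, was at 155, 154 and 152 CPM in YAP1-MAMLD1-dR3R1 and 636, 582 and 713 CPM in YAP1-TFE3 tumours. Atp5g3 rose by 2.07 (SE 0.11, adjusted p = 4.48e-06). Idh3a, of isocitrate dehydrogenase, was at 89.6, 79.2 and 73 CPM in YAP1-MAMLD1-dR3R1 and 388, 362 and 495 CPM in YAP1-TFE3 tumours. Idh3a rose by 2.36 (SE 0.16, adjusted p = 1.08e-05). In each case the lowest YAP1-TFE3 library had more than 2 times the CPM of the highest YAP1-MAMLD1-dR3R1 library. Mdh2, Dlat, Sdhc and Fh1 rose by 2.04, 2.05, 1.36 and 1.3 (adjusted p = 1.09e-05, 1.17e-05, 1.14e-05 and 1.44e-05). Oxct1, the enzyme that lets tissues burn ketone bodies, was at 268, 314 and 278 CPM in YAP1-MAMLD1-dR3R1 and 3194, 3078 and 3150.4 CPM in YAP1-TFE3 tumours. Oxct1 rose by 3.45 (SE 0.14, adjusted p = 1.75e-06), with all 6 libraries close to their group means. Of 16 regulators of mitochondrial biogenesis 5 rose. Ppargc1a, the coactivator PGC-1 alpha (chr5:51454249-52115853 in GRCm38.p6), was at 19.7, 10.9 and 4.57 CPM in YAP1-MAMLD1-dR3R1 and 376, 366 and 483 CPM in YAP1-TFE3 tumours. Ppargc1a rose by 5.12 (SE 0.5, adjusted p = 6.35e-05). Esrrb, an oestrogen-related receptor that works with it, was at 0.932, 0.387 and 0.443 CPM in YAP1-MAMLD1-dR3R1 and 20.5, 19.1 and 26.7 CPM in YAP1-TFE3 tumours. Esrrb rose by 5.21 (SE 0.57, adjusted p = 0.000117). Ppara, the fatty acid sensor, rose by 3.29 (adjusted p = 1.14e-05). Gabpb1 fell by 0.53 (adjusted p = 0.0313), a call lost with the 6 libraries alone (adjusted p = 0.0801). Ppargc1b, for PGC-1 beta, fell by 1.0 (adjusted p = 0.0432), a call lost without YAP1-TFE3 replicate 1 (adjusted p = 0.0724) or 2 (0.0605) or YAP1-MAMLD1-dR3R1 replicate 2 (0.0754). The creatine kinase gene Ckb and the ATP synthase gene Atp5b were among the called genes that carried most reads. They rose by 3.07 and 2.2 (adjusted p = 2.34e-05 and 2.54e-05).

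Glucose uptake and glycolysis rose as well, in 17 of 23 genes (median 1.7). Bsg, for basigin, the chaperone that brings lactate and pyruvate carriers to the cell surface (chr10:79704358-79711979 in GRCm38.p6), was at 444, 372 and 499.8 CPM in YAP1-MAMLD1-dR3R1 and 12038, 9058 and 7921 CPM in YAP1-TFE3 tumours. Bsg rose by 4.46 (SE 0.24, adjusted p = 4.45e-06). In naive brain it was at 348, 363 and 408 CPM and in YAP1-FAM118B tumours at 563, 457 and 563 CPM, so the YAP1-TFE3 libraries stood apart from the other 9. Slc16a1, the carrier MCT1 that basigin escorts, named here after its values were seen, was at 134, 118 and 51.2 CPM in YAP1-MAMLD1-dR3R1 and 745, 667 and 1013 CPM in YAP1-TFE3 tumours. Slc16a1 rose by 3.0 (SE 0.41, adjusted p = 0.000397). Slc2a3, the glucose transporter GLUT3, was at 48.2, 41.2 and 28.7 CPM in YAP1-MAMLD1-dR3R1 and 1077, 818 and 795 CPM in YAP1-TFE3 tumours. Slc2a3 rose by 4.51 (SE 0.3, adjusted p = 9.49e-06). Hk1 rose by 2.13 (adjusted p = 1.74e-05), Gapdh by 2.11 (adjusted p = 1.35e-05) and Gpi1 by 1.93 (adjusted p = 1.32e-05). Ldha, of lactate dehydrogenase, was at 494, 372 and 731 CPM in YAP1-MAMLD1-dR3R1 and 565, 564 and 552 CPM in YAP1-TFE3 tumours. Ldha did not pass the test (log2 fold change 0.07, SE 0.26, adjusted p = 0.839), nor did Slc16a3, the carrier MCT4 (adjusted p = 0.697), both named after their values were seen. Pfkm, the muscle phosphofructokinase, fell by 0.87 (adjusted p = 0.024), a call lost without YAP1-TFE3 replicate 1 or 3 or YAP1-MAMLD1-dR3R1 replicate 1 or 2 (adjusted p = 0.053 to 0.0718). Of 18 hypoxia response genes 6 rose (median 0.66). Ndrg1 was at 319, 287 and 366 CPM in YAP1-MAMLD1-dR3R1 and 3404, 2020.4 and 2718 CPM in YAP1-TFE3 tumours. Ndrg1 rose by 3.07 (SE 0.32, adjusted p = 8.32e-05). Vegfa, the angiogenic factor, rose by 2.85 (adjusted p = 0.000171), Epas1, for HIF-2 alpha, rose by 1.05 (adjusted p = 0.000793) and Bnip3 rose by 1.53 (adjusted p = 0.00357). Reads of Gapdh, Ldha and the ATP synthase genes may be shared with near-identical pseudogenes, and the handling of such reads was not given in the sources used here.

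**Figure D4:**
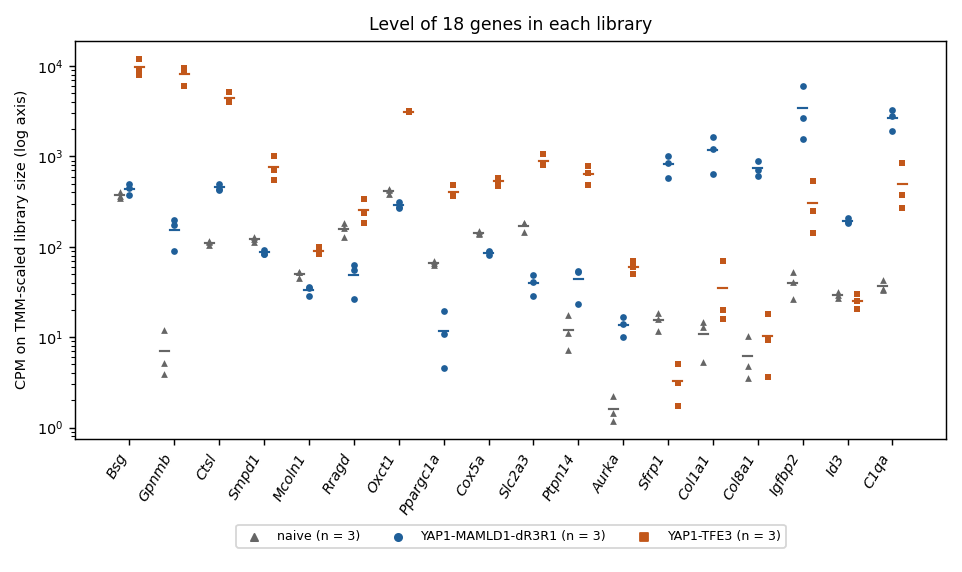
Levels of 18 genes in each library, in CPM on a log axis, for naive brain (grey triangles), YAP1-MAMLD1-dR3R1 (blue circles) and YAP1-TFE3 tumours (orange squares), with short bars for the group means of 3 libraries. The first 12 genes, from Bsg to Aurka, have every orange square above the blue circles, and the last 6, from Sfrp1 to C1qa, have every orange square below them.

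Both fusions carry YAP1, and the targets of YAP1 with TEAD differed in part. Of 27 such targets 12 rose and 1 fell in YAP1-TFE3 relative to YAP1-MAMLD1-dR3R1 tumours (median 0.56), and 4 fell without YAP1-TFE3 replicate 2 and 2 without YAP1-MAMLD1-dR3R1 replicate 3 or with plain library sizes. Ptpn14, a phosphatase that binds YAP1, was at 54, 23.3 and 53.3 CPM in YAP1-MAMLD1-dR3R1 and 782, 483 and 652 CPM in YAP1-TFE3 tumours. Ptpn14 rose by 3.88 (SE 0.44, adjusted p = 0.000134). Ajuba was at 44.4, 18.9 and 13.3 CPM in YAP1-MAMLD1-dR3R1 and 240.4, 195 and 149.6 CPM in YAP1-TFE3 tumours. Ajuba rose by 2.93 (SE 0.41, adjusted p = 0.000493). Wtip, of the same family of LIM proteins that restrain the LATS kinases, rose by 2.33 (adjusted p = 0.000452). F3, the tissue factor of coagulation, rose by 2.01 (adjusted p = 0.00113) and Tead1 rose by 1.8 (adjusted p = 0.00144), while Rbms3 fell by 2.13 (adjusted p = 0.00812). Ankrd1, a standard YAP1 readout named here after its values were seen, was at 258, 64 and 64.9 CPM in YAP1-MAMLD1-dR3R1 and 909, 642 and 631 CPM in YAP1-TFE3 tumours. Ankrd1 rose by 2.5 (SE 0.62, adjusted p = 0.0104), with an adjusted p of 0.0581 without YAP1-MAMLD1-dR3R1 replicate 2. The matricellular genes most used as YAP1 readouts overlapped, and both are named after their values were seen. Ctgf was at 1371, 340.3 and 247 CPM in YAP1-MAMLD1-dR3R1 and 1136, 1394 and 136 CPM in YAP1-TFE3 tumours. Ctgf did not pass the test (log2 fold change 0.44, SE 0.85, adjusted p = 0.696). Cyr61 was at 366, 131 and 276 CPM in YAP1-MAMLD1-dR3R1 and 488, 395 and 174 CPM in YAP1-TFE3 tumours, with an adjusted p of 0.465. Of 9 TEAD factors and partners 2 rose and 1 fell, against 22.6% and 16.9% of all genes tested. Tead4 went from 5.36, 1.3 and 0.798 to 58.6, 48.1 and 35.7 CPM. Tead4 rose by 4.24 (SE 0.75, adjusted p = 0.00173), and Vgll3, a TEAD cofactor, fell by 1.56 (adjusted p = 0.0041). Of 22 Hippo kinases and regulators 10 rose and 3 fell, but 5 rose without YAP1-TFE3 replicate 2 or YAP1-MAMLD1-dR3R1 replicate 2 or 3, and 6 without YAP1-TFE3 replicate 1. Wwc1, the scaffold KIBRA, rose by 2.72 (adjusted p = 3.39e-05), Wwc2 rose by 2.05 (adjusted p = 0.000177) and Nf2, which encodes merlin, rose by 0.82 (adjusted p = 0.000752). Dchs1, a giant cadherin, fell by 1.29 (adjusted p = 0.00285) and Frmd6 fell by 1.38 (adjusted p = 0.0103).

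The TEAD site GGAATG, in either direction, was found in 14.7% of all promoter windows. Counted by gene, it was found in 14.9% of tested genes with a window and in 16.7% of those that rose. It was found in 6 of 11 YAP1 and TEAD targets that rose and in 9 of 19 of all such targets tested. The windows of Ankrd1 (chr19:36119795-36120094, minus strand) and Ptpn14 (chr1:189728018-189728317, plus strand) are shown as those of 2 targets with large increases, with GGAATG or its reverse complement in capitals.

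Ankrd1: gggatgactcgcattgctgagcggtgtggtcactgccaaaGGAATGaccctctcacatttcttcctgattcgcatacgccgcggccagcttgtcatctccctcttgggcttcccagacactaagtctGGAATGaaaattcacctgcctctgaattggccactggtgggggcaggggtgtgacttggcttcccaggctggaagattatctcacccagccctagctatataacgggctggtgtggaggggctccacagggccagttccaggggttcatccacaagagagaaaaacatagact
Ptpn14: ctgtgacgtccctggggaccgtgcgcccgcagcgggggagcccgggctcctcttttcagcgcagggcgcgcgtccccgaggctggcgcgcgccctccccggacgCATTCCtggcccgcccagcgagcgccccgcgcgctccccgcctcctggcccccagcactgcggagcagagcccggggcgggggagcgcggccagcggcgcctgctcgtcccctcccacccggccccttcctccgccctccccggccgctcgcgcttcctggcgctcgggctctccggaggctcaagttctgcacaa

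Genes of mitosis were higher in YAP1-TFE3 tumours, and those of DNA replication in part. Of 24 mitosis and spindle genes tested 24 rose (median 1.39), and 23 or 24 did when any 1 library was left out. Aurka, the mitotic kinase Aurora A, was at 10.2, 13.9 and 16.5 CPM in YAP1-MAMLD1-dR3R1 and 59.4, 49.4 and 70.4 CPM in YAP1-TFE3 tumours. Aurka rose by 2.14 (SE 0.25, adjusted p = 0.000173), and naive brain had 2.22, 1.47 and 1.19 CPM. Tpx2 (log2 fold change 1.59, adjusted p = 0.000173), Ccna2 (log2 fold change 1.46, adjusted p = 0.000263) and Cdc20 (log2 fold change 1.89, adjusted p = 0.000515) rose similarly. Of 23 DNA replication genes 11 rose (7 without YAP1-TFE3 replicate 3), with a median of 0.67. Rrm2, of ribonucleotide reductase, was at 42.1, 52.3 and 54.9 CPM in YAP1-MAMLD1-dR3R1 and 570.5, 1001 and 519 CPM in YAP1-TFE3 tumours. Rrm2 rose by 3.81 (SE 0.31, adjusted p = 2.32e-05). All 3 YAP1-TFE3 libraries exceeded the 3 others for each of these genes. Of 18 genes of the G1 phase, 7 rose and 4 fell. Ccnd1 was at 569, 1003 and 1095 CPM in YAP1-MAMLD1-dR3R1 and 3112, 3789 and 3532 CPM in YAP1-TFE3 tumours. Ccnd1 rose by 1.97 (SE 0.24, adjusted p = 0.00022). Ccnd2 was at 234, 159 and 107 CPM in YAP1-MAMLD1-dR3R1 and 84.8, 76.9 and 21.4 CPM in YAP1-TFE3 tumours. Ccnd2 fell by 1.45 (SE 0.44, adjusted p = 0.0258). The D-type cyclins thus moved in opposite directions, though the Ccnd2 call was lost without YAP1-MAMLD1-dR3R1 replicate 1 (adjusted p = 0.0862). The number of G1 genes that fell was 2 without YAP1-TFE3 replicate 1 or YAP1-MAMLD1-dR3R1 replicate 1.

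Collagens were mostly lower in YAP1-TFE3 tumours, and other extracellular matrix genes in part. Of 26 collagens 17 fell (median -1.87), 11 without YAP1-MAMLD1-dR3R1 replicate 3. Col1a1, of fibrillar collagen I (chr11:94936224-94953042 in GRCm38.p6), was at 1656, 645 and 1202 CPM in YAP1-MAMLD1-dR3R1 and 68.9, 19.9 and 15.8 CPM in YAP1-TFE3 tumours. Col1a1 fell by 5.07 (SE 0.9, adjusted p = 0.0018). Col8a1 was at 716, 606 and 895 CPM in YAP1-MAMLD1-dR3R1 and 9.31, 18.3 and 3.67 CPM in YAP1-TFE3 tumours. Col8a1 fell by 6.15 (SE 0.69, adjusted p = 0.000135). Col5a2 was at 1832, 1499 and 1257 CPM in YAP1-MAMLD1-dR3R1 and 145, 77.9 and 57.1 CPM in YAP1-TFE3 tumours. Col5a2 fell by 4.03 (SE 0.57, adjusted p = 0.000479). The collagens summed to 11807, 8554 and 13266 CPM in YAP1-MAMLD1-dR3R1, 3596, 2342 and 1946 CPM in YAP1-TFE3 tumours and 207, 296 and 269 CPM in naive brain, so that every library of both tumour groups lay above brain. Col1a2 fell by 1.83 (adjusted p = 0.0428), a call lost with the 6 libraries alone (adjusted p = 0.0808) and without any library of the 6 other than YAP1-TFE3 replicate 1 (0.0532 to 0.0906). Col4a5, of basement membrane, rose by 1.87 (adjusted p = 0.002). Of 23 matrix glycoproteins and proteoglycans 7 fell. Hspg2, for the basement membrane proteoglycan perlecan, fell by 2.79 (adjusted p = 0.000571) and Vcan, for versican, fell by 3.5 (adjusted p = 0.00361). The laminin gene Lama2 fell by 2.92 (adjusted p = 0.000179) and Lama4 fell by 2.59 (adjusted p = 0.001). Of 23 matrix proteases and their inhibitors 10 fell and 3 rose. Adamts2, which trims procollagen, fell by 4.67 (adjusted p = 0.00166) and the stromelysin Mmp3 fell by 4.05 (adjusted p = 0.00569). Mmp10, another stromelysin, rose from 0.233, 0.0966 and 0 to 5.01, 4.26 and 4.55 CPM. Without YAP1-MAMLD1-dR3R1 replicate 2 or 3, 1 protease gene in place of 3 rose. Has2, for the main hyaluronan synthase, was at 196, 107 and 102 CPM in YAP1-MAMLD1-dR3R1 and 0.193, 1.11 and 1.21 CPM in YAP1-TFE3 tumours. Has2 fell by 7.32 (SE 0.76, adjusted p = 9.12e-05). Reads of its antisense partner Has2os, which was also lower, cannot be told apart from its own without known strand. Aebp1, for a collagen-binding protein, stood against this pattern, at 534, 316 and 352 CPM in YAP1-MAMLD1-dR3R1 and 3707, 3350.3 and 2001 CPM in YAP1-TFE3 tumours. Aebp1 rose by 2.91 (SE 0.41, adjusted p = 0.00049). Among 22 integrins and focal adhesion genes, Itga3 rose by 2.82 (adjusted p = 0.00113) and Parva rose by 1.9 (adjusted p = 0.000765). Itgb8 fell by 1.77 (adjusted p = 0.00187) and Zyx fell by 1.53 (adjusted p = 0.00161).

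Smooth muscle genes split, with 4 of 14 higher and 5 lower. Acta2, smooth muscle actin, was at 295, 22.7 and 548 CPM in YAP1-MAMLD1-dR3R1 and 4654, 4395 and 2249 CPM in YAP1-TFE3 tumours. Acta2 rose by 3.71 (SE 0.85, adjusted p = 0.00702). Tpm2, a tropomyosin of the same cells, was at 84.1, 16.4 and 100.4 CPM in YAP1-MAMLD1-dR3R1 and 6.27, 4.83 and 4.32 CPM in YAP1-TFE3 tumours. Tpm2 fell by 3.7 (SE 0.75, adjusted p = 0.00352). The groups did not overlap for either, but the Acta2 call was lost with the 6 libraries alone (adjusted p = 0.0517), and 3 genes fell without YAP1-TFE3 replicate 1. Lmod1 (log2 fold change 3.4, adjusted p = 0.00184) and Tpm1 (log2 fold change 1.11, adjusted p = 0.000954) rose. Of 13 fibroblast and meningeal markers 7 fell (median -1.83), with summed levels of 5871, 4416 and 5328 CPM in YAP1-MAMLD1-dR3R1 and 1776, 451 and 769 CPM in YAP1-TFE3 tumours. Aldh1a2, the retinoic acid enzyme of meninges, was at 154, 281 and 223 CPM in YAP1-MAMLD1-dR3R1 and 1.01, 3.59 and 1.11 CPM in YAP1-TFE3 tumours. Aldh1a2 fell by 6.84 (SE 0.8, adjusted p = 0.00017). Islr was at 88.5, 136 and 166 CPM in YAP1-MAMLD1-dR3R1 and 3.38, 8.11 and 1.35 CPM in YAP1-TFE3 tumours. Islr fell by 4.92 (SE 0.61, adjusted p = 0.000232). In whole tissue, fewer cells of a type and less RNA per cell cannot be told apart, and the part of fibroblast markers in the matrix result was not tested.

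Signalling genes of the TGF-beta and BMP families were lower in 13 of 28 cases and higher in 3 (median -0.91). Id3, a direct BMP target, was at 189, 209.5 and 185 CPM in YAP1-MAMLD1-dR3R1 and 20.3, 29.9 and 25 CPM in YAP1-TFE3 tumours. Id3 fell by 2.96 (SE 0.21, adjusted p = 1.17e-05). Id1, another, fell by 1.77 on the log2 scale (adjusted p = 0.00018). The BMP antagonist Nog was at 16.9, 8.89 and 17.2 CPM in YAP1-MAMLD1-dR3R1 and 0.482, 0.355 and 0.418 CPM in YAP1-TFE3 tumours. Nog fell by 5.08 (SE 0.3, adjusted p = 7.16e-06). The activin antagonist Fst was at 159, 93.2 and 277 CPM in YAP1-MAMLD1-dR3R1 and 7.62, 5.23 and 2.18 CPM in YAP1-TFE3 tumours. Fst fell by 5.14 (SE 0.61, adjusted p = 0.000179). Targets and antagonists were thus lower together. Gdf15, a stress-induced member of the family, was the exception in size, at 4.31, 6.81 and 2.17 CPM in YAP1-MAMLD1-dR3R1 and 458, 296 and 246 CPM in YAP1-TFE3 tumours. Gdf15 rose by 6.23 (SE 0.77, adjusted p = 0.000223). In the WNT pathway 7 of 25 genes fell. Sfrp1, a secreted WNT antagonist (chr8:23411383-23449632 in GRCm38.p6), was at 852, 585 and 1010.1 CPM in YAP1-MAMLD1-dR3R1 and 3.13, 5.05 and 1.72 CPM in YAP1-TFE3 tumours. Sfrp1 fell by 7.94 (SE 0.47, adjusted p = 7.51e-06), with every YAP1-MAMLD1-dR3R1 library above 100 times the highest YAP1-TFE3 library. Dkk3 fell by 2.56 (adjusted p = 0.00119), the transcription factor gene Tcf7 fell by 2.11 (adjusted p = 0.0011) and Rnf43, which removes WNT receptors, fell by 1.84 (adjusted p = 0.00228). The receptor gene Fzd1 rose by 1.24 (adjusted p = 0.00781), a call lost without YAP1-TFE3 replicate 1 (adjusted p = 0.0753) or YAP1-MAMLD1-dR3R1 replicate 2 (0.0658) or 3 (0.0617). In the Notch pathway 5 of 21 genes fell, 1 rose and 15 did not pass (median -0.26), against 16.9% of all genes lower and 22.6% higher. The Notch target Hey2 was at 12, 14.8 and 18.3 CPM in YAP1-MAMLD1-dR3R1 and 2.46, 2.44 and 2.41 CPM in YAP1-TFE3 tumours. Hey2 fell by 2.62 (SE 0.25, adjusted p = 5.51e-05). The modifier Lfng fell by 2.26 (adjusted p = 0.00143), the ligand Jag1 fell by 1.62 (adjusted p = 0.00882) and the receptor Notch2 rose by 1.28 (adjusted p = 0.00299).

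Growth factor genes gave 9 lower and 5 higher of 30. Igfbp2, a carrier of insulin-like growth factors, was at 1559, 2647 and 5996 CPM in YAP1-MAMLD1-dR3R1 and 247, 529 and 142 CPM in YAP1-TFE3 tumours. Igfbp2 fell by 3.47 (SE 0.62, adjusted p = 0.00191). Hgf, the MET ligand, was at 24, 17.8 and 13.7 CPM in YAP1-MAMLD1-dR3R1 and 2.12, 2.57 and 2.23 CPM in YAP1-TFE3 tumours. Hgf fell by 3.0 (SE 0.36, adjusted p = 0.000188). Fgf2 fell by 2.49 (adjusted p = 0.000728), Igfbp5 fell by 2.25 (adjusted p = 0.00387) and Igfbp3 rose by 1.5 (adjusted p = 0.00506). The number of growth factor genes that rose was 3 without YAP1-MAMLD1-dR3R1 replicate 2. AP-1 and immediate early genes split into 3 higher and 5 lower of 14. The small MAF factors Mafk and Maff rose by 2.47 and 2.82 (adjusted p = 7.25e-05 and 0.000179), while Jun fell by 1.3 (adjusted p = 0.00183) and Ier2 fell by 1.49 (adjusted p = 0.00389).

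The largest decreases, outside those already given, included genes of hormone and retinoid handling. Some were high in YAP1-MAMLD1-dR3R1 tumours and low in all other groups, naive brain included. Dio3, the deiodinase that inactivates thyroid hormone, was at 196, 50.8 and 115 CPM in YAP1-MAMLD1-dR3R1 and 0.0482, 0.399 and 0.0464 CPM in YAP1-TFE3 tumours. Dio3 fell by 9.44 (SE 0.87, adjusted p = 4.54e-05). Its antisense neighbour Dio3os had no count in the YAP1-TFE3 libraries (at least 223-fold lower). Crabp1, the cellular retinoic acid binding protein, was at 26.5, 13.2 and 133 CPM in YAP1-MAMLD1-dR3R1 and 0.0482, 0 and 0 CPM in YAP1-TFE3 tumours, a ratio of pooled counts of 3708, 95% counting interval 665 to 146482. Most of its reads were in YAP1-MAMLD1-dR3R1 replicate 3, without which its log2 fold change was -10.04 in place of -11.42. Osr1, a transcription factor of mesoderm and kidney, was at 49.3, 52.9 and 39 CPM in YAP1-MAMLD1-dR3R1 and 0, 0.133 and 0.0464 CPM in YAP1-TFE3 tumours. Osr1 fell by 9.46 (SE 0.7, adjusted p = 1.49e-05). Sbspon, for a secreted somatomedin B domain protein, was at 12.9, 54 and 28.2 CPM in YAP1-MAMLD1-dR3R1 tumours and had no count in YAP1-TFE3 tumours (at least 654-fold lower). Il31ra, an interleukin receptor, was at 55.2, 0.193 and 1.37 CPM in YAP1-MAMLD1-dR3R1 tumours, nearly all in replicate 1, and had no count in YAP1-TFE3 tumours. This call was lost with the Ddx3y level as a covariate (adjusted p = 0.057) and with a replicate block (adjusted p = 0.0523). Clca3a2 and Fndc1 were at 5.71, 42 and 62.3 CPM and 129, 297 and 664 CPM in YAP1-MAMLD1-dR3R1 tumours, against 0.0482, 0 and 0.0928 CPM and 1.4, 3.24 and 0.743 CPM in YAP1-TFE3 tumours. Ly6k was at 4.31, 9.95 and 15.8 CPM in YAP1-MAMLD1-dR3R1 and 0, 0.0443 and 0.0928 CPM in YAP1-TFE3 tumours. Another 3 of the largest decreases rested mostly on YAP1-MAMLD1-dR3R1 replicate 3. Gfra3, a receptor subunit for artemin, was at 1.16, 0.725 and 66.8 CPM in YAP1-MAMLD1-dR3R1 and 0, 0.133 and 0.0464 CPM in YAP1-TFE3 tumours. Gfra3 fell by 8.42 (SE 2.18, adjusted p = 0.0169), against a log2 fold change of -3.99 without that replicate, and the call was lost without YAP1-TFE3 replicate 1 (adjusted p = 0.0582). Npy6r, a neuropeptide Y receptor, was at 0.932, 0.242 and 18.1 CPM in YAP1-MAMLD1-dR3R1 and 0, 0 and 0.0464 CPM in YAP1-TFE3 tumours, a ratio of pooled counts of 411, 95% counting interval 73.3 to 16255. Its log2 fold change was -8.26, and -4.99 without that replicate. Scn7a, a sodium channel, was at 48.4, 45.5 and 565 CPM in YAP1-MAMLD1-dR3R1 and 1.25, 1.64 and 0.325 CPM in YAP1-TFE3 tumours. Scn7a fell by 7.67 (SE 1.32, adjusted p = 0.00151), against -5.6 without that replicate. Of genes at high level, Apod, the lipid carrier apolipoprotein D, was at 2627, 1781 and 2626 CPM in YAP1-MAMLD1-dR3R1 and 189, 86 and 11.1 CPM in YAP1-TFE3 tumours. Apod fell by 4.62 (SE 0.85, adjusted p = 0.00213). Serpina3n, an acute-phase protease inhibitor, was at 2007, 2447 and 2525 CPM in YAP1-MAMLD1-dR3R1 and 429, 206 and 117 CPM in YAP1-TFE3 tumours. Serpina3n fell by 3.21 (SE 0.51, adjusted p = 0.000928). It had means of 322 CPM in YAP1-FAM118B tumours and 23.1 CPM in naive brain. Dio3, Crabp1, Sbspon and Clca3a2 were also low outside YAP1-MAMLD1-dR3R1 tumours. Their means were 2.4, 2.48, 1.26 and 0.0824 CPM in naive brain and 2.61, 1.09, 1.12 and 0.386 CPM in YAP1-FAM118B tumours. Osr1, Scn7a and Fndc1 were not, with means of 32.4, 67.4 and 161 CPM in YAP1-FAM118B tumours.

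Microglia markers and complement genes were mostly lower in YAP1-TFE3 tumours, whereas few markers of lymphocytes passed the test. Of 17 microglia markers 14 fell (median -1.88), and 14 or 15 did when any 1 library was left out. C1qa, the complement component made by microglia and macrophages, was at 1903, 3308 and 2815 CPM in YAP1-MAMLD1-dR3R1 and 378, 272 and 853 CPM in YAP1-TFE3 tumours. C1qa fell by 2.42 (SE 0.39, adjusted p = 0.0011). Trem2, a lipid receptor of these cells, was at 198, 334 and 297 CPM in YAP1-MAMLD1-dR3R1 and 48.8, 28.7 and 89.4 CPM in YAP1-TFE3 tumours. Trem2 fell by 2.31 (SE 0.39, adjusted p = 0.00126). The microglia markers summed to 9694, 14749 and 15340.0 CPM in YAP1-MAMLD1-dR3R1 and 2425, 1987 and 5996 CPM in YAP1-TFE3 tumours, against 463, 500.4 and 407 CPM in naive brain. Both tumour groups were thus above naive brain, YAP1-TFE3 less so than YAP1-MAMLD1-dR3R1, and within YAP1-TFE3 replicate 3 was highest. In YAP1-FAM118B tumours the microglia markers summed to 3350, 3071 and 3401 CPM, within the range of the YAP1-TFE3 libraries. YAP1-MAMLD1-dR3R1 was thus the group that stood apart. Of 16 complement genes 11 fell, among them C4b (log2 fold change -3.28, adjusted p = 0.00312) and C1s1 (log2 fold change -4.57, adjusted p = 0.000512). The complement genes summed to 7318, 13503 and 12329 CPM in YAP1-MAMLD1-dR3R1 and 1539, 1080 and 3888 CPM in YAP1-TFE3 tumours. YAP1-FAM118B tumours had 2678, 1760 and 2301 CPM, again within the YAP1-TFE3 range. Of 18 monocyte and macrophage markers 8 fell, 13 without YAP1-TFE3 replicate 3, and the number that rose was 1 in place of 2 without YAP1-TFE3 replicate 1 or 3 or YAP1-MAMLD1-dR3R1 replicate 2 or 3. Itgam, integrin CD11b, fell by 1.96 (adjusted p = 0.0024) and Plac8 fell by 5.12 (adjusted p = 0.00414). Against the others, Lgals3, which encodes galectin-3 and marks damaged lysosomes as well as macrophages, was at 111, 133 and 111 CPM in YAP1-MAMLD1-dR3R1 and 1938, 1194 and 1846 CPM in YAP1-TFE3 tumours. Lgals3 rose by 3.81 (SE 0.41, adjusted p = 0.000107). Cd68, a lysosomal glycoprotein, rose by 1.58 (adjusted p = 0.0207), a call lost without YAP1-TFE3 replicate 1 (adjusted p = 0.0502) or 3 (0.108) or YAP1-MAMLD1-dR3R1 replicate 2 (0.0938) or 3 (0.091). The part of immune cells in the other results was not tested.

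**Figure D5:**
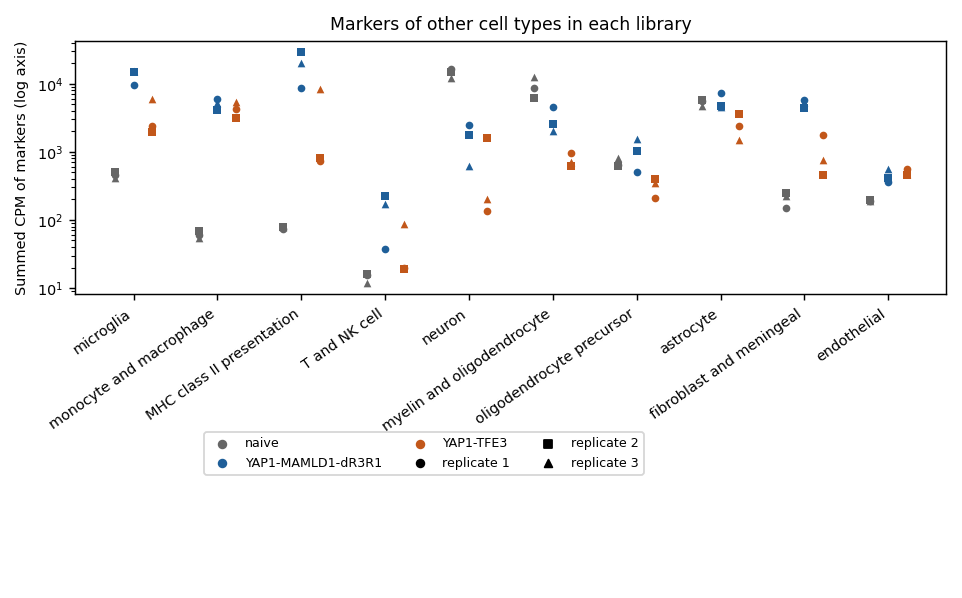
Summed CPM of the tested markers of each cell type or process on a log axis, for each library of naive brain (grey), YAP1-MAMLD1-dR3R1 (blue) and YAP1-TFE3 tumours (orange), with the shape giving the replicate. YAP1-TFE3 replicate 3 (orange triangle) is the highest orange point for MHC class II and T cell markers, and replicate 2 (orange square) for neuron markers.

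Calls among genes of antigen presentation and lymphocytes depended on YAP1-TFE3 replicate 3. For comparison, 16.9% of all genes tested were lower and 22.6% higher in the reported fit. The MHC class II genes summed to 8694, 29135 and 20033 CPM in YAP1-MAMLD1-dR3R1 and 739, 806 and 8522 CPM in YAP1-TFE3 tumours. Of the 10, 2 were lower in the reported fit, 10 without YAP1-TFE3 replicate 3, 4 without YAP1-MAMLD1-dR3R1 replicate 1 or with plain library sizes, and 1 without YAP1-TFE3 replicate 1 or 2 or YAP1-MAMLD1-dR3R1 replicate 2. Ctss, the protease that trims the class II chaperone, was at 3181, 5706 and 6459 CPM in YAP1-MAMLD1-dR3R1 and 538, 428 and 1695 CPM in YAP1-TFE3 tumours. Ctss fell by 2.53 (SE 0.5, adjusted p = 0.00335). T and NK cell markers summed to 37, 224 and 173 CPM and 19.6, 18.9 and 87.1 CPM, and 2 of 17 were lower, 13 without YAP1-TFE3 replicate 3. In edgeR, none was lower without YAP1-TFE3 replicate 1 or 2 (2 at an unadjusted p under 0.05) or without YAP1-MAMLD1-dR3R1 replicate 2 (1 at an unadjusted p under 0.05), and 1 was without YAP1-MAMLD1-dR3R1 replicate 3. YAP1-TFE3 replicate 3 and YAP1-MAMLD1-dR3R1 replicate 1 lay close together in the MHC class II sum and overlapped in the T and NK cell sum. Of 22 interferon-stimulated genes 5 fell and 3 rose, against 13 and 2 without YAP1-TFE3 replicate 3, and 1 fell without YAP1-TFE3 replicate 1 or 2 or YAP1-MAMLD1-dR3R1 replicate 2, and 3 without YAP1-MAMLD1-dR3R1 replicate 3. Bst2, which encodes tetherin, rose (log2 fold change 1.65, adjusted p = 0.00471), as did Ifit3 (log2 fold change 2.21, adjusted p = 0.0108). Immune checkpoint genes fell in 4 of 12 cases, 9 without YAP1-TFE3 replicate 3. Lag3 was at 80.8, 272 and 194 CPM in YAP1-MAMLD1-dR3R1 and 10.7, 27.2 and 28.3 CPM in YAP1-TFE3 tumours. Lag3 fell by 3.04 (SE 0.5, adjusted p = 0.00115), and Havcr2, which encodes TIM-3, fell by 2.2 (adjusted p = 0.00242). Cd80, a ligand of CD28 and CTLA-4, was at 1.98, 4.01 and 1.73 CPM in YAP1-MAMLD1-dR3R1 and 24.2, 14.2 and 31.6 CPM in YAP1-TFE3 tumours. Cd80 rose by 3.18 (SE 0.5, adjusted p = 0.000966). Chemokines and receptors fell in 4 of 26 cases, against 16.9% of all genes tested. The number was 11 without YAP1-TFE3 replicate 3 and 2 without YAP1-TFE3 replicate 2. Cxcl14 fell by 2.53 (adjusted p = 0.0006) and Cx3cl1, fractalkine, rose by 1.41 (adjusted p = 0.00511).

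Among markers of the brain's own cells, those of the oligodendrocyte lineage were mostly lower in YAP1-TFE3 tumours, whereas those of astrocytes split and few of neurons passed the test. Of 12 myelin and oligodendrocyte markers 10 fell (median -2.41). Cldn11, the claudin of the myelin sheath, was at 181, 114 and 89.5 CPM in YAP1-MAMLD1-dR3R1 and 30, 17.9 and 12.3 CPM in YAP1-TFE3 tumours. Cldn11 fell by 2.67 (SE 0.49, adjusted p = 0.00212), and naive brain had 257, 182 and 305 CPM. Of 9 oligodendrocyte precursor markers 5 fell: Sox10, the transcription factor of this lineage, was at 69, 225 and 278 CPM in YAP1-MAMLD1-dR3R1 and 11.3, 24.8 and 22.7 CPM in YAP1-TFE3 tumours. Sox10 fell by 3.28 (SE 0.49, adjusted p = 0.000695). Pdgfra (log2 fold change -1.96, adjusted p = 0.00569) and Ptprz1 (log2 fold change -1.85, adjusted p = 0.00236) were lower. Neuron markers summed to 2452, 1763 and 628 CPM in YAP1-MAMLD1-dR3R1 and 134, 1588 and 203 CPM in YAP1-TFE3 tumours, so YAP1-TFE3 replicate 2 and YAP1-MAMLD1-dR3R1 replicate 3 stood apart from their groups. Of 20 neuron markers, Tubb3 fell by 2.67 (adjusted p = 0.00316) and Map2 fell by 1.28 (adjusted p = 0.0135). These 2 calls became 17 without YAP1-TFE3 replicate 2 and 4 without YAP1-MAMLD1-dR3R1 replicate 3. Naive brain had 16629, 15079.5 and 12184 CPM, above every library of both tumour groups. Astrocyte markers split into 6 lower and 3 higher of 12, with 3 lower without YAP1-TFE3 replicate 1. Gfap, the astrocyte filament, was at 4247, 2577 and 2986 CPM in YAP1-MAMLD1-dR3R1 and 164, 959 and 168 CPM in YAP1-TFE3 tumours. Gfap fell by 2.93 (SE 0.93, adjusted p = 0.0302), a call lost in the fit of tumours alone (adjusted p = 0.0601) and without YAP1-TFE3 replicate 1 (0.09) or 3 (0.0768) or YAP1-MAMLD1-dR3R1 replicate 1 (0.0656). Aqp4, the water channel of astrocyte end-feet, fell by 2.63 (adjusted p = 0.00513). Aldh1l1 was at 90.3, 71 and 50.1 CPM in YAP1-MAMLD1-dR3R1 and 977, 888 and 447 CPM in YAP1-TFE3 tumours. Aldh1l1 rose by 3.45 (SE 0.36, adjusted p = 9.31e-05). Sox9 rose (log2 fold change 2.09, adjusted p = 0.00462). Whether residual brain in a library moves any other gene given here was not tested.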

How the data were processed

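RNA was sequenced from 12 mouse libraries in 4 groups of 3. The authors counted reads on gene symbols with HTSeq and named mm10 as the genome (both per the submitters' processing notes), and deposited unnormalised counts. The aligner, annotation, strand setting and versions were not given in the sources used here. Antisense, overlapping and near-identical genes may therefore share reads. RNA came from frozen tumours per the series' design text, while the labels' extraction text speaks of cultured cells.

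All 12 libraries were fitted together in edgeR 4.0.16 (limma 3.58.1, R 4.3.3) with 1 mean per group. The filter filterByExpr with a minimum count of 10 kept 16364 of 24421 symbols (4096 had no count), and TMM factors scaled the libraries. The contrast of both groups was tested two-sided with the quasi-likelihood F test, Benjamini-Hochberg adjusted over the genes tested, at 0.05. SE is the log2 fold change over the root of F. Ratios and floors cover counting error only. Coordinates and promoters come from RefSeq GRCm38.p6, which matched 24300 symbols. The fit was also run on simulated counts with an equal spread for all genes and few changed genes, balanced in direction. That setting is unlike these data, so the run says nothing about their spread or scaling. Alternatives included DESeq2 1.42.0, other scalings and filters, fewer groups, a replicate block and leaving out each library.

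The named genes are the fusion partners and MiT/TFE factors, up to 15 genes per direction with the largest change and no overlap, up to 10 per direction with most reads at a fold of 2 or more, and up to 5 members of each of 54 gene lists by adjusted p plus up to 2 against the majority. Genes of other choice are marked as such. Some genes that the rule chose are not reported here. The comparison and the lists were chosen with earlier results of these data known, and a list is described by its counts and median beside those of all genes.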

Additional observations from a re-analysis of the deposited data

How the results depend on the processing

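The test against a fold of 2 called 1561 genes, 938 higher and 623 lower. With the 6 libraries alone 4634 genes were called, 2961 higher and 1673 lower, against 6456 in the reported fit of all 12 libraries. Leaving out 1 library at a time, with the TMM factors recomputed, gave 4953 to 6667 calls, 2364 to 3359 higher and 2460 to 3967 lower. The share of higher genes among the calls was 57.2% in the reported fit. It was 49.2% with DESeq2 (3857 higher, 3979 lower), 42.0% with plain library sizes, 44.7% without the low-count filter, 44.3% with a filter of 1 CPM, 44.9% without genes on X and Y and 43.8 to 44.8% with a naive library as TMM reference. The choice of reference was added after seeing the data. Other TMM references gave 52.6 to 58.6%.

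The labels number replicates 1 to 3 in both groups and do not say that equal numbers belong together. Deviations from the group mean correlated at 0.0822, 0.0622 and 0.3238 for same-numbered libraries, and at -0.4243 to 0.36 for the other pairs. With 3 libraries per group these values cannot decide whether same-numbered libraries share a batch. With the replicate block 6391 genes were called, 3575 higher and 2816 lower. YAP1-MAMLD1-dR3R1 replicate 1 was the 1 female library of the comparison, and with the Ddx3y level as covariate 5716 genes were called.

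Of the 278 called genes among the 282 chosen by rule, 38 lost the call under another tool, scaling, filter, set of libraries or covariate, 36 when a library was left out, 5 with another TMM reference and 109 in the test against a fold of 2; none changed sign in these. Limits are the 3 libraries per group, the depth of 19850220 to 24611949 counted reads, under which 3 counts are 0.116 to 0.145 CPM, whole tissue with unlike amounts of other cells, and RNA counts that cannot separate mouse genes from fusion reads.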

Other observations

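Cholesterol genes were higher in YAP1-TFE3 tumours, with 15 of 20 called higher (median log2 fold change 1.41, against -0.05 for all genes tested). Dhcr7, the last reductase of cholesterol synthesis, was at 28.9, 31.3 and 37.7 CPM in YAP1-MAMLD1-dR3R1 and 318, 319 and 177 CPM in YAP1-TFE3 tumours. Dhcr7 rose by 3.06 (SE 0.23, adjusted p = 1.74e-05), and no library of one group reached the other. Insig1, which holds the sterol sensor in the endoplasmic reticulum, was at 46.8, 47.5 and 67.2 CPM in YAP1-MAMLD1-dR3R1 and 225, 324 and 215 CPM in YAP1-TFE3 tumours. Insig1 rose by 2.24 (SE 0.21, adjusted p = 5.67e-05). Sqle rose by 1.93 (adjusted p = 0.000116), Fdps by 1.66 (adjusted p = 9.65e-05) and Sc5d by 1.17 (adjusted p = 7.25e-05). In serine and one-carbon metabolism 4 of 18 genes rose and 4 fell (median 0.04). These counts were near the shares of all genes tested, 22.6% higher and 16.9% lower. With plain library sizes 8 fell, and without YAP1-TFE3 replicate 1 or YAP1-MAMLD1-dR3R1 replicate 2, 1 fell. The number that rose was 2 without YAP1-TFE3 replicate 1 or 2 and 1 without YAP1-MAMLD1-dR3R1 replicate 3. Aldh1l2, of mitochondrial folate, was at 64.5, 92.4 and 79.6 CPM in YAP1-MAMLD1-dR3R1 and 12.4, 11.6 and 12.6 CPM in YAP1-TFE3 tumours. Aldh1l2 fell by 2.69 (SE 0.35, adjusted p = 0.000331), while Mthfd1, of cytosolic folate, rose by 1.12 (adjusted p = 0.000372).

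Genes of neural progenitors moved both ways, with 5 of 16 higher and 3 lower, and 3 higher without YAP1-TFE3 replicate 1 or 2 or YAP1-MAMLD1-dR3R1 replicate 3. Prom1, the membrane protein CD133, was at 18.4, 8.46 and 3.68 CPM in YAP1-MAMLD1-dR3R1 and 319, 319.9 and 264 CPM in YAP1-TFE3 tumours. Prom1 rose by 4.89 (SE 0.53, adjusted p = 0.000115). Nr2e1, the stem cell receptor TLX, was at 7.34, 5.07 and 1.37 CPM in YAP1-MAMLD1-dR3R1 and 255, 242 and 129 CPM in YAP1-TFE3 tumours. Nr2e1 rose by 5.5 (SE 0.63, adjusted p = 0.000143). Nes, the progenitor filament nestin, was at 168, 206 and 228 CPM in YAP1-MAMLD1-dR3R1 and 69.9, 58.6 and 66.2 CPM in YAP1-TFE3 tumours. Nes fell by 1.63 (SE 0.17, adjusted p = 7.8e-05). Fabp7 fell by 3.46 (adjusted p = 0.0114). In each of these 4 genes, chosen by their adjusted p in the same libraries, the groups did not overlap. Vascular markers differed in single genes: Mfsd2a, the lipid carrier of brain endothelium, was at 32.1, 18.7 and 22.4 CPM in YAP1-MAMLD1-dR3R1 and 360.3, 187 and 131 CPM in YAP1-TFE3 tumours. Mfsd2a rose by 3.21 (SE 0.38, adjusted p = 0.000188). Slco1a4, an anion carrier of the same cells, was at 38.1, 31.9 and 15 CPM in YAP1-MAMLD1-dR3R1 and 3.38, 7.05 and 3.81 CPM in YAP1-TFE3 tumours. Slco1a4 fell by 2.58 (SE 0.41, adjusted p = 0.000935). Of 12 endothelial markers 2 fell in the reported fit, against 16.9% of all genes tested. The number was 5 without YAP1-TFE3 replicate 2 and 1 without YAP1-MAMLD1-dR3R1 replicate 2. Choroid plexus markers summed to 2346, 70.3 and 41.3 CPM in YAP1-MAMLD1-dR3R1 and 1022, 238 and 5.94 CPM in YAP1-TFE3 tumours, high in replicate 1 of both groups. The globin genes Hba-a1, Hba-a2, Hbb-bs and Hbb-bt had no count in any library, so the amount of blood in the tissue cannot be judged from them.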
